A study of Mus musculus with 6 samples.

Results

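The 10 genes described here encode enzymes and core subunits that write, erase or maintain 2 repressive chromatin systems, DNA methylation and Polycomb. They were taken by symbol from the table of islet transcripts, 10 of 19940 genes, and each symbol stood for 1 gene. The list holds the DNA methyltransferases Dnmt1, Dnmt3a and Dnmt3b, the TET dioxygenases Tet1, Tet2 and Tet3, and the Polycomb genes Suz12, Eed, Ezh1 and Bmi1. RNA came from hand-picked pancreatic islets of C57BL6/J mice, either pregnant at gestational day 14.5 or nonpregnant, the latter being littermates by their label. No transgene, deletion or drug treatment is named for either group, and the sources used here give no age. The labels list 3 samples per group, while 5 animals per group are named in the design text. Whether each sample came from 1 animal is not stated, and islets hold several cell types.

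DNA methylation is copied onto new DNA strands by Dnmt1 and laid down at fresh sites by Dnmt3a and Dnmt3b. TET enzymes oxidise methylcytosine, which starts its removal. Polycomb repressive complex 2 (PRC2) methylates lysine 27 of histone H3 through Ezh1 or Ezh2 held by Suz12 and Eed, and Polycomb repressive complex 1 (PRC1), to which Bmi1 belongs, ubiquitinates histone H2A. In beta cells, the insulin-producing cells of the islet, these systems are known for keeping genes of other cell types silent and for restraining the cell cycle inhibitors of the Cdkn2a locus.

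Each gene had 1 mean read count per group, so no value per library, SD or interval can be given, and calls rest on the authors' adjusted p under 0.05. What spread that p measures is not known, since the sources used here do not describe the test. The mean reads summed to 87654449 in pregnant and 84493872 in nonpregnant islets. Markers of beta cells were abundant, with 19.8% and 16.6% of summed mean reads in the same order for 7 genes. Ins1 and Ins2 alone made up 19.6% and 16.4%. Of the 7 genes 1, Ins1, rose and 0 fell per the authors' deposited table, and their median log2 ratio was 0.02. In a list of 10 acinar genes, which mark the exocrine cells around islets, 9 rose and 0 fell per the authors' deposited table, and their summed mean was 917769 reads in pregnant against 68407 in nonpregnant islets. The lowest acinar marker, Amy2a5, was at 18 and 0 reads. The summed mean of 6 proliferation genes was 10552 against 2643 reads, and 6 of 6 rose per the authors' deposited table. The 5 alpha cell genes summed to 1406658 against 2022175 reads, with 2 of 5 lower. Duct, endothelial, macrophage, lymphocyte and stellate lists of 5 genes each had medians of 0.33, 0.00, 0.15, 0.10 and -0.16 in the authors' log2 ratio. Muc1 of the duct list rose 2.64-fold and Lyz2 of the macrophage list 1.32-fold per the authors' deposited table (adjusted p = 0.0216 and 0.0319). The endothelial, lymphocyte and stellate lists held 0 calls. The part of any of these cell types in the results below was not tested. In whole islets a changed number of cells of a type and a changed amount of RNA per cell cannot be told apart.

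Of the 10 genes, Dnmt3b rose, Dnmt3a fell and the other 8 did not pass by the authors' deposited table. Over all genes 11.7% were called, 7.57% as higher and 4.15% as lower. Among the 8158 genes with at least the mean reads of the lowest member, Dnmt3b, 16.4% were called, 9.84% as higher and 6.53% as lower. The share of called members, 2 of 10, is near that background. Of the 10 log2 ratios 3 were above 0 and 7 below, with a median of -0.20 against -0.01 for the 15682 genes with at least 10 mean reads.

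**Figure D1:**
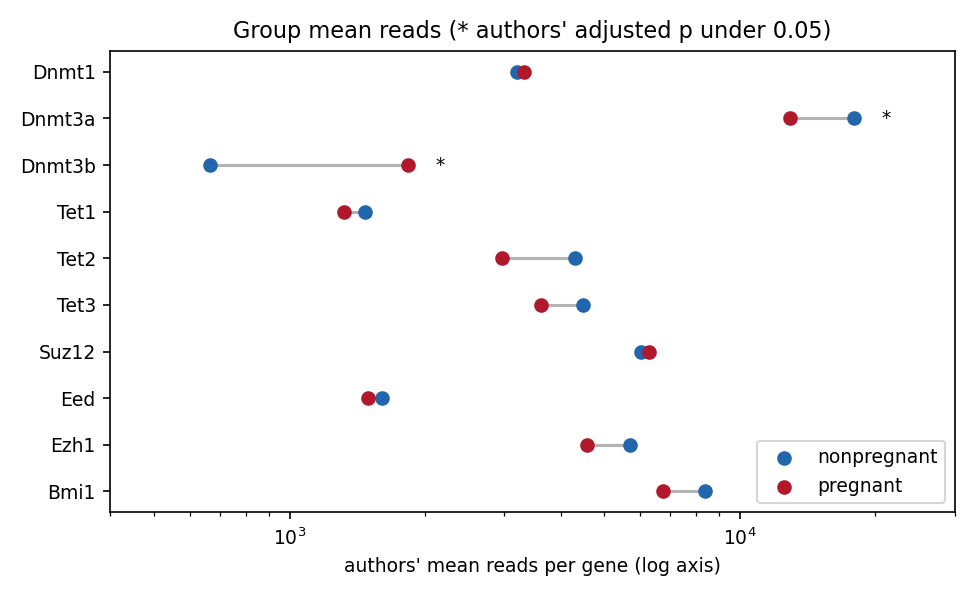
Authors' mean reads of the 10 genes in nonpregnant (blue) and pregnant (red) islets, on a log axis, 1 mean per group without error; a star marks an authors' adjusted p under 0.05. Dnmt3b lies at 667 and 1832 reads and Dnmt3a at 17933 and 12943 reads, and these 2 carry the stars.

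Dnmt3b, a de novo methyltransferase best known from early embryos, had a mean of 1832 reads in pregnant and 667 in nonpregnant islets per the authors' deposited table. That is a 2.82-fold rise (log2 ratio 1.49, adjusted p = 2.59e-16 by the authors' test). Its log2 ratio was above that of 97.5% of genes with at least 10 mean reads. The gene (ENSMUSG00000027478) lies on the plus strand of chromosome 2 at 153649450 to 153687730 of GRCm38. The summed means of proliferation and acinar markers were also higher in pregnant islets, at 10552 against 2643 and 917769 against 68407 reads, and their part in the rise of Dnmt3b was not tested.

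Dnmt3a, the second de novo methyltransferase, known in beta cells for silencing genes of glycolysis that mature beta cells do not use, had a mean of 12943 reads in pregnant and 17933 in nonpregnant islets per the authors' deposited table. It fell to 0.74 of the nonpregnant level (log2 ratio -0.44, adjusted p = 0.000507 by the authors' test). With a Bonferroni correction of the deposited p its adjusted p was 0.417, which ends the call. Dnmt3a (ENSMUSG00000020661) lies on the plus strand of chromosome 12 at 3806007 to 3914443 and shares 133 exon bases with the antisense gene Dnmt3aos, 0.799% of its exon length. A pseudogene named Dnmt3a-ps1 is annotated elsewhere, so a part of its reads is uncertain. By reads it was the highest of the 10 genes, above 95.3% of genes with at least 10 mean reads.

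Both de novo genes thus went in opposite directions, and their log2 ratios differed by 1.93. This difference was not tested, since it needs values per library. Levels per length (RPKM) are mean reads per kilobase of annotated exon, scaled to the group's summed mean reads. On this scale Dnmt3b made up 10.8% of the level of Dnmt3a plus Dnmt3b in nonpregnant and 31.6% in pregnant islets. The level of Dnmt3a was 8.25 times that of Dnmt3b in nonpregnant and 2.17 times in pregnant islets. With the longest transcript as length, Dnmt3a was at 21.9 and Dnmt3b at 1.83 RPKM in nonpregnant islets. In pregnant islets they were at 15.2 and 4.84 RPKM, so the share and the multiple depend on the length used. By annotated exon, the summed level of both genes was 14.3 RPKM in nonpregnant and 13.0 RPKM in pregnant islets. Against the authors' ratio, this scale moved the median log2 ratio of all genes with at least 10 mean reads by -0.09. A part of the difference between the 2 sums thus belongs to the scale.

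The windows before the starts of these 2 genes are shown because they are the members that passed, and because CpG, the site these enzymes methylate, differs in number between them. Each window is the 250 bases before a RefSeq start on GRCm38.p6, 5′ to 3′ on the gene's strand, with every CpG in capitals. Dnmt3b has 1 window, chr2:153649199-153649448 (plus strand), and Dnmt3a has 3 windows. Printed for Dnmt3a are window 1, chr12:3806730-3806979, and window 3, chr12:3891494-3891743 (plus strand), both inside the annotated span of the gene. Window 2, chr12:3806910-3807159, overlaps window 1 and is not printed. Mean reads sum over all starts of a gene and cannot be assigned to one of them.
Dnmt3b: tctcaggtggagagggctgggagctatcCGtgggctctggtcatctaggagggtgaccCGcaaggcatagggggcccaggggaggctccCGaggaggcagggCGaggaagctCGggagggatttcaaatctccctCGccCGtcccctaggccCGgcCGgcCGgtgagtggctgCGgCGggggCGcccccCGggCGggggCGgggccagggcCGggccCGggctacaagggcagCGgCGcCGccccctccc
Dnmt3a, window 1: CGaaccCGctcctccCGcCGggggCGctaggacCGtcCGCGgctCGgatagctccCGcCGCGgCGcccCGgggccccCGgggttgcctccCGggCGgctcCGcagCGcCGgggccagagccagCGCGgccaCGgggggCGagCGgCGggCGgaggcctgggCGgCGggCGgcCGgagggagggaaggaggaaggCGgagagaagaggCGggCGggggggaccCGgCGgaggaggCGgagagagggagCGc
Dnmt3a, window 3: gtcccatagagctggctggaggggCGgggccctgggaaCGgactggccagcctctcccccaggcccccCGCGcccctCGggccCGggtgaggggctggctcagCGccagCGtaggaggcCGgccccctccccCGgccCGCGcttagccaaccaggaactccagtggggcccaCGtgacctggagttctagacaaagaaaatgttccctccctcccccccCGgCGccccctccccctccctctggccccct
The window of Dnmt3b holds 21 CpGs, and windows 1, 2 and 3 of Dnmt3a hold 38, 40 and 15. Among 32851 windows of the same length in the RefSeq table the median was 6, and 16.3%, 1.88%, 1.31% and 27.3% of windows hold at least as many as these 4 in the same order. Methylation itself was not measured here.

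Dnmt1, the maintenance methyltransferase, did not pass, with a mean of 3311 reads in pregnant and 3193 in nonpregnant islets per the authors' deposited table (ratio 1.06, adjusted p = 0.786). Its log2 ratio of 0.09 became -0.0006 when both groups were scaled to the same total of mean reads. It was 0.061 when acinar markers and the 5 genes with the most reads were left out of that total. The sign thus depends on the scale, so no direction can be given. The gene occupies 20907209 to 20959888 of chromosome 9, minus strand.

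Most genes that work beside Dnmt1 at newly made DNA rose. Of 8 such genes 6 rose and 0 fell per the authors' deposited table, with a median log2 ratio of 1.12. These shares were 75% and 0%, against 7.57% higher and 4.15% lower over all genes. Uhrf1, which brings Dnmt1 to hemimethylated DNA, had a mean of 599 reads in pregnant and 79 in nonpregnant islets per the authors' deposited table. Its paralog Uhrf2 had 6954 and 6391 reads and did not pass by the authors' deposited table (ratio 1.12, adjusted p = 0.42). The level of Uhrf1 per length was 4.11% of that of Uhrf1 plus Dnmt1 in nonpregnant and 23.9% in pregnant islets.

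Hells, a chromatin remodeller needed for DNA methylation, rose 3.38-fold from 174 to 579 mean reads per the authors' deposited table (adjusted p = 2.78e-23). The chromatin assembly factor genes Chaf1a and Chaf1b rose 3.33-fold and 2.7-fold per the authors' deposited table. The DNA ligase gene Lig1 and the sliding clamp gene Pcna rose 1.76-fold and 1.48-fold per the authors' deposited table. Usp7, a deubiquitinase that binds Dnmt1 and Uhrf1, was at a ratio of 0.86 and did not pass by the authors' deposited table (adjusted p = 0.2). On the opposite strand, exons of Chaf1a share 52.5% of their length with Ubxn6 and those of Lig1 5.79% with Zswim9. If strand was ignored in counting, reads from the shared bases of such genes cannot be told apart. Pcna has annotated pseudogenes with the same limit on the split of reads. The summed mean of the 6 proliferation genes moved with these genes, from 2643 to 10552 reads, and its part was not tested.

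Readers of DNA methylation and cofactors of the methyltransferases did not pass. Of 12 genes 0 rose and 0 fell by the authors' adjusted p, 2 had an unadjusted p under 0.05, and the median log2 ratio was -0.05. In a list of 12 this is near the shares over all genes, 7.57% higher and 4.15% lower. The 4 smallest p-values of the list belonged to Zbtb4, Mbd2, Zbtb33 and Trim28, with ratios of 0.84, 1.17, 0.86 and 0.88 per the authors' deposited table (adjusted p = 0.0952, 0.154, 0.259 and 0.275). Dnmt3l, a catalytically inactive partner of the de novo enzymes in germ cells, was listed at 1 and 3 mean reads.

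The 3 TET genes all had ratios below 1, and none of the 3 passed per the authors' deposited table. An unadjusted p under 0.05 with a ratio below 1 was met by 9.78% of all genes and, among TET genes, by Tet3. Tet3 had a mean of 3608 reads in pregnant and 4494 in nonpregnant islets per the authors' deposited table (ratio 0.82, p = 0.00884, adjusted p = 0.0673). When the adjustment covered only the 12790 genes that had 100 or more mean reads, its adjusted p was 0.0475, past the threshold.

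Tet2, often mutated in blood cancers, had 2968 and 4309 mean reads in pregnant and nonpregnant islets per the authors' deposited table (ratio 0.71, adjusted p = 0.312). That ratio was the lowest of the 10 genes, below that of Dnmt3a, which passed. Tet1, which carries a CXXC domain that binds unmethylated CpG, had 1318 and 1470 mean reads per the authors' deposited table (ratio 0.92, adjusted p = 0.852). Per length the summed level of the 3 genes was 5.45 RPKM in pregnant and 7.33 RPKM in nonpregnant islets. Of this Tet3 made up 45.3% and 43.4%. Against the authors' ratio, this scale moved the median log2 ratio of genes with at least 10 mean reads by -0.09. With the longest transcript as length, Tet2 was at 5.56 and Tet3 at 4.88 RPKM in nonpregnant islets. In pregnant islets Tet2 was at 3.69 and Tet3 at 3.77 RPKM. All 3 lie on the minus strand, Tet1 on chromosome 10 at 62804570 to 62908996, Tet2 on chromosome 3 at 133463679 to 133545139 and Tet3 on chromosome 6 at 83362373 to 83459084.

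Of 11 genes that act with TET enzymes in demethylation, repair or supply of 2-oxoglutarate, 2 rose and 0 fell per the authors' deposited table. These shares were 18.2% and 0%, against 7.57% higher and 4.15% lower over all genes. Gadd45a, a stress-induced gene tied to DNA repair and demethylation, rose 3.63-fold from 738 to 2616 mean reads per the authors' deposited table (adjusted p = 3.35e-50). Gadd45g rose 1.51-fold, from 6772 to 9934 mean reads, per the authors' deposited table (adjusted p = 0.00522). Its call ended with a Bonferroni or a Benjamini-Yekutieli correction. Gadd45b was at a ratio of 1.39 without passing per the authors' deposited table (adjusted p = 0.572). Exons of Gadd45a share 19.1% of their length with E230016M11Rik on the opposite strand.

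Tdg, the glycosylase that removes oxidised methylcytosine, had 2391 and 2348 mean reads in pregnant and nonpregnant islets and did not pass by the authors' deposited table (adjusted p = 0.894). Ogt, an O-GlcNAc transferase that binds TET proteins, was at a ratio of 0.8 per the authors' deposited table (adjusted p = 0.462). Idh2, the mitochondrial isocitrate dehydrogenase that makes 2-oxoglutarate, was at 1.21 per the authors' deposited table (adjusted p = 0.0573). It passed when Benjamini-Hochberg adjustment covered only genes with at least 10, or at least 100, mean reads. The median log2 ratio of the list was 0.04, and -0.05 with scaling to total mean reads.

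**Figure D2:**
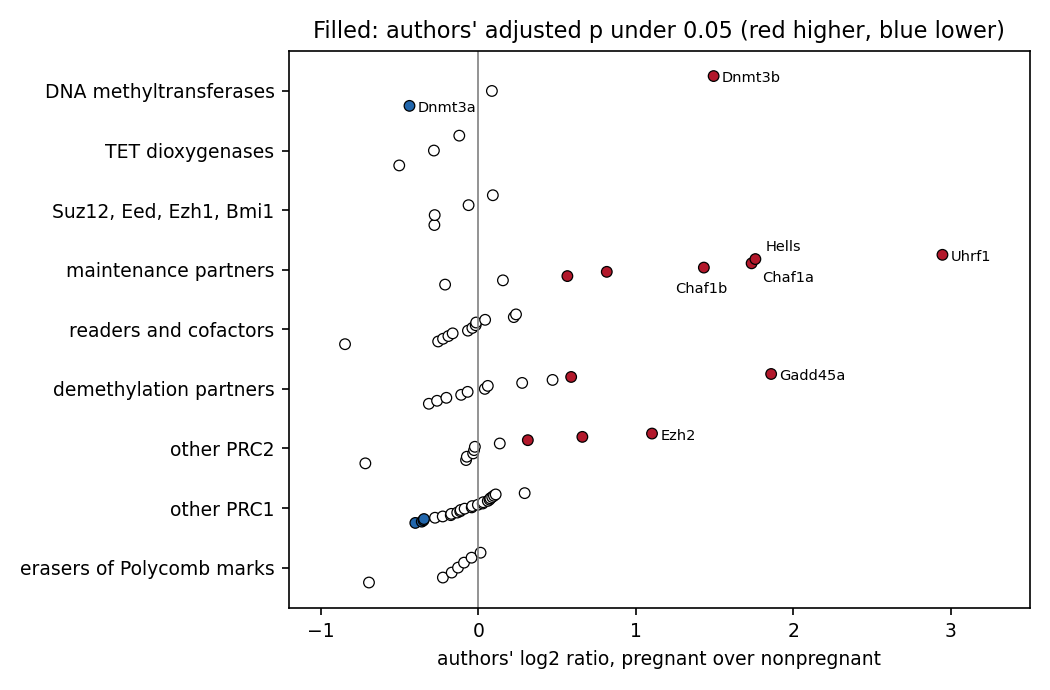
Authors' log2 ratio, pregnant over nonpregnant, for the 10 genes (top 3 rows) and 72 other genes of the same pathways, 1 point per gene; filled points passed an adjusted p under 0.05. Filled red points (higher) are Dnmt3b and 11 maintenance partners, demethylation partners and other PRC2 genes, and filled blue points (lower) are Dnmt3a and 4 other PRC1 genes.

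The PRC2 members did not pass. Suz12, the scaffold of the complex, had a mean of 6294 reads in pregnant and 6044 in nonpregnant islets per the authors' deposited table (ratio 1.07, adjusted p = 0.743). Eed, which reads the H3 lysine 27 mark, had 1497 and 1601 mean reads per the authors' deposited table (ratio 0.96, adjusted p = 0.907). Ezh1, the catalytic subunit that prevails in nondividing cells, had 4577 and 5692 mean reads per the authors' deposited table (ratio 0.82, p = 0.00846, adjusted p = 0.0652). Ezh1 passed when Benjamini-Hochberg adjustment of the authors' p covered only genes with at least 100 mean reads (0.0459). Scaling to total mean reads gave a log2 ratio of 0.0055 for Suz12, against 0.09 as deposited. It was 0.0671 with acinar markers and the 5 genes with the most reads left out of the total. Suz12 lies on chromosome 11 at 79993106 to 80034123 (plus strand), Ezh1 on chromosome 11 at 101191115 to 101226463 and Eed on chromosome 7 at 89954654 to 89980983 (both minus strand). Of the exon length of Eed, 6.82% is shared with E230029C05Rik on the opposite strand.

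Among 10 other PRC2 genes 3 rose and 0 fell per the authors' deposited table. These shares were 30% and 0%, against 7.57% higher and 4.15% lower over all genes. Ezh2, the catalytic subunit tied to dividing cells, rose 2.15-fold from 405 to 850 mean reads per the authors' deposited table (adjusted p = 9.42e-13). Phf19, a reader of H3 lysine 36 methylation that joins PRC2, rose 1.58-fold from 131 to 203 mean reads per the authors' deposited table (adjusted p = 0.024). Rbbp7, a histone-binding subunit shared with other complexes, rose 1.24-fold from 13466 to 16343 mean reads per the authors' deposited table (adjusted p = 0.0225). On the opposite strand, exons of Rbbp7 share 5.98% of their length with Txlng and those of Ezh2 2.61% with Gm26625. The calls for Phf19 and Rbbp7 ended at an adjusted p under 0.01. The related subunit gene Rbbp4 was at 0.99 per the authors' deposited table (adjusted p = 0.99). The summed mean of the 6 proliferation genes, 10552 against 2643 reads, moved with Ezh2, and its part was not tested.

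Per length Ezh2 made up 7.34% of the level of Ezh1 plus Ezh2 in nonpregnant and 17.1% in pregnant islets, so Ezh1 was the higher of the pair in both groups. The log2 ratios of Ezh2 and Ezh1 differed by 1.38, and this difference was not tested.

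Bmi1, the PRC1 subunit known for repressing the Cdkn2a locus in beta cells, had a mean of 6758 reads in pregnant and 8370 in nonpregnant islets per the authors' deposited table (ratio 0.83, adjusted p = 0.259). It lies on the plus strand of chromosome 2 at 18677018 to 18686629. Among 24 other PRC1 genes 0 rose and 4 fell per the authors' deposited table, with a median log2 ratio of -0.06. These shares were 0% and 16.7%, against 7.57% higher and 4.15% lower over all genes. Kdm2b, which brings a variant PRC1 to unmethylated CpG, fell to 0.76, from 8165 to 6044 mean reads, per the authors' deposited table (adjusted p = 0.00252). Rybp, a subunit of variant PRC1, fell to 0.79 and Phc3, a polyhomeotic subunit, to 0.78 per the authors' deposited table (adjusted p = 0.0404 and 0.0164). Auts2, a partner of another variant PRC1, fell to 0.79 per the authors' deposited table (adjusted p = 0.0194). The 4 falls were small, and a threshold of 0.01 or a Benjamini-Yekutieli correction left Kdm2b alone, while a Bonferroni correction left 0.

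The catalytic RING subunits did not pass, with ratios of 0.97 for Ring1 and 0.86 for Rnf2 per the authors' deposited table (adjusted p = 0.965 and 0.343). Exons of Kdm2b share 5.77% of their length with Rnf34 on the opposite strand. Summed means of alpha and delta cell markers were also lower in pregnant islets, at 1406658 against 2022175 reads and 312727 against 369346 reads, and their part was not tested. Most of these reads belonged to Gcg (1337190 against 1910194) and Sst (311336 against 367282). Neither hormone gene passed by the authors' deposited table (adjusted p = 0.0772 and 0.442). Of the 5 alpha and 2 delta genes, 2 and 1 were called lower.

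Enzymes that remove Polycomb marks did not pass. Of 7 genes 0 rose and 0 fell per the authors' deposited table, 0 had an unadjusted p under 0.05, and the median log2 ratio was -0.13. In a list of 7 genes 0 calls is near the shares over all genes, 7.57% higher and 4.15% lower. The H3 lysine 27 demethylase genes Kdm6a and Kdm6b were at ratios of 1.01 and 0.94 per the authors' deposited table (adjusted p = 1 and 0.834). Bap1, a deubiquitinase of histone H2A, and its partners Asxl1 and Asxl2 were at 0.97, 0.89 and 0.91 per the authors' deposited table (adjusted p = 0.951, 0.407 and 0.56).

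Genes known to be silenced by these systems, or kept low in beta cells, mostly did not pass. Whether DNA methylation or Polycomb acts on each listed gene in islets was not tested. Of 4 Cdk inhibitor genes 0 rose and 0 fell per the authors' deposited table, against 7.57% higher and 4.15% lower over all genes. Cdkn2a, which encodes the inhibitors p16Ink4a and p19Arf, was at 47 mean reads in pregnant and 30 in nonpregnant islets per the authors' deposited table (ratio 1.61, adjusted p = 0.334). Its neighbour Cdkn2b was at 736 and 512 mean reads per the authors' deposited table (ratio 1.47, p = 0.0138, adjusted p = 0.0925). Among 20 genes that beta cells keep low or that mark other islet cells, 1 rose and 0 fell per the authors' deposited table. These shares, 5% and 0%, were near those over all genes, 7.57% and 4.15%. The gene that rose was Igf1, a growth factor gene, at 101 against 48 mean reads (2.12-fold, adjusted p = 0.0286 per the authors' deposited table). The call for Igf1 ended at a threshold of 0.01. Not all of the 20 were low in whole islets: Maob, which encodes a monoamine oxidase, had 19812 and 21758 mean reads per the authors' deposited table. Hk1 and Ldha, glycolysis genes kept low in beta cells, were at 0.87 and 1.1 per the authors' deposited table (adjusted p = 0.491 and 0.844).

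Hox genes, classic Polycomb targets, had few reads in both groups. Of 31 listed genes 23 were matched in the table, their highest mean was 60 reads, and 0 passed per the authors' deposited table. Of 12 germline genes whose promoters are methylated in somatic cells 7 were matched, with at most 76 mean reads and 0 passing per the authors' deposited table. In these 2 lists 0 genes also had an unadjusted p under 0.05. Over all genes 11.7% were called in either direction. What size of difference could be detected at such low reads was not tested.

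**Figure D3:**
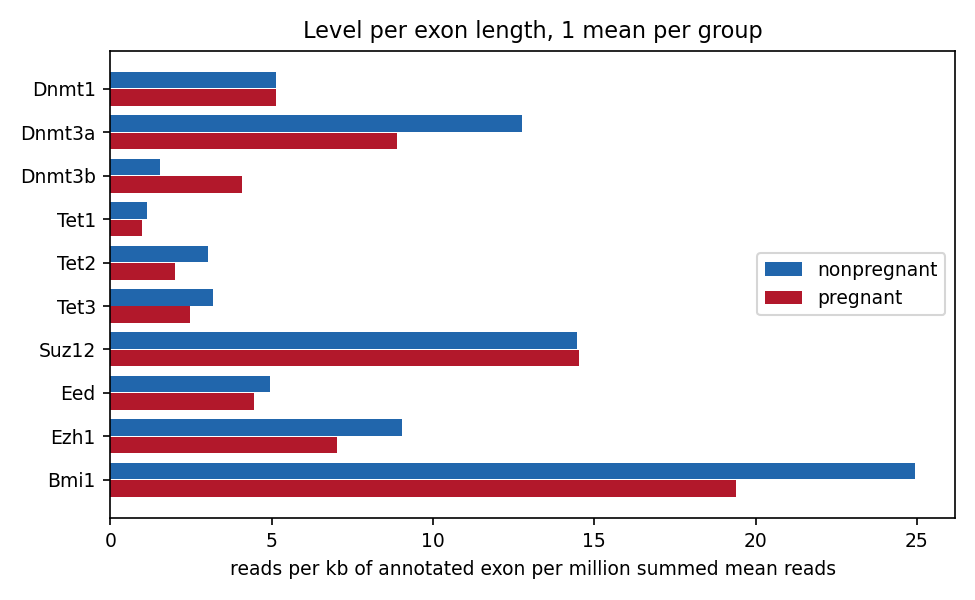
Level per exon length of the 10 genes (RPKM, horizontal axis from 0), 1 mean per group without error. Bmi1 is the highest bar in both groups (24.9 nonpregnant, 19.4 pregnant) and Tet1 the lowest (1.13 and 0.973).

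Per length, in RPKM, the order in nonpregnant islets was Bmi1 at 24.9, Suz12 at 14.5, Dnmt3a at 12.8, Ezh1 at 9.05, Dnmt1 at 5.12 and Eed at 4.95. Below these came Tet3 at 3.19, Tet2 at 3.02, Dnmt3b at 1.55 and Tet1 at 1.13 on the same scale. In pregnant islets Dnmt3b moved from rank 9 to rank 7, with a level of 4.09, above Tet3 at 2.47 and Tet2 at 2.01. The other 6 genes kept their ranks of 1 to 6, and Tet1 stayed at 10. With 1 mean per group it is not known which neighbours in this order differ beyond their spread. The order also depends on the length used: with the longest transcript in place of all exons, 4 of 10 genes in nonpregnant and 8 of 10 in pregnant islets kept their rank.

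**Figure D4:**
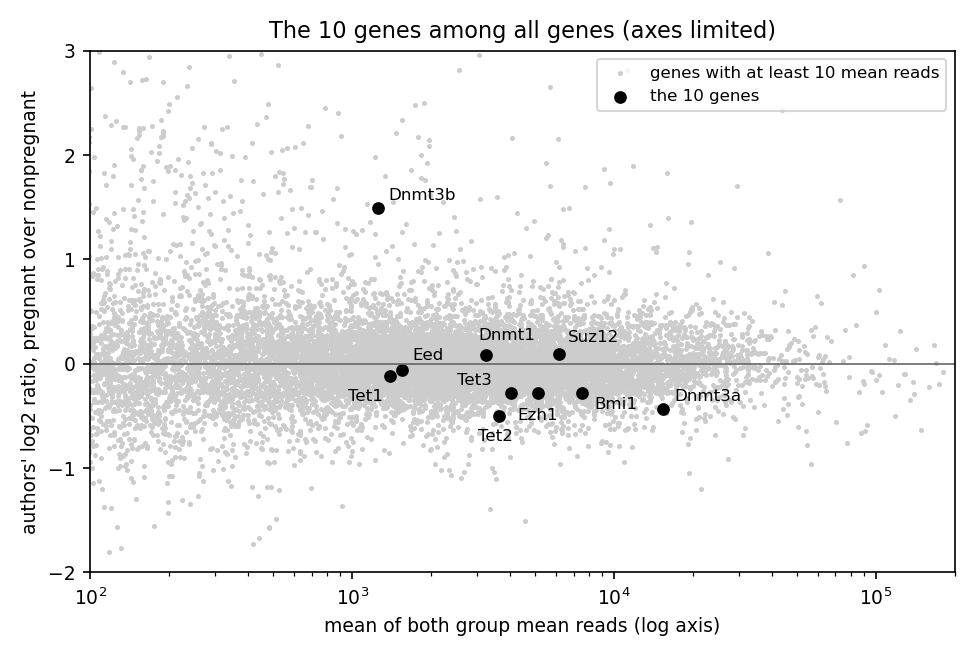
Authors' log2 ratio against mean reads (log axis) for genes with at least 10 mean reads (grey) and the 10 genes (black), with both axes limited. Dnmt3b at 1.49 stands above the dense band of genes, and the other 9 lie between -0.50 and 0.09.

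Windows before the starts were also searched for the E2F motif, the site of the factors that drive genes of DNA synthesis, as TTTCCCGC, TTTCGCGC, TTTGCCGC or TTTGGCGC on both strands. It occurred in 1.86% of the 32851 windows of 250 bases. All 10 members had at least 1 of 14 windows, and 2 windows held a match. These were Suz12, with TTTCCCGC starting 219 bases before the start, and the third window of Dnmt1, with TTTCGCGC on the opposite strand, also at 219 bases. Neither of these genes passed per the authors' deposited table, and the windows of Dnmt3b and Dnmt3a held no match. Among the 11 other pathway genes that rose, Uhrf1, Hells and Phf19 held a match, in 3 of 14 windows. Of all 72 pathway genes 58 had a window, and 3 of their 82 windows held a match. Of the 4 that fell only 2, Kdm2b and Phc3, had a window, and 0 of their 5 windows held a match. Each run searched holds a CpG. The median CpG count was 19 in windows of the members and 21.5 in those of the 11 genes, against 6 over all windows. The 1.86% is thus not a like background, and enrichment was not tested. A match is a run of letters and was not tested as a binding site.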

How the data were processed

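RNA was sequenced from islets of pregnant and nonpregnant mice, with 3 samples per group in the labels. The submitters' processing notes name the build GRCm38, the counter HTSeq 0.5.3p3 and the aligners TopHat2 2.0.12, Bowtie and TopHat. Use of strand, scaling before averaging and the test are not given in the sources used here. The deposited table holds the authors' mean read count per gene and group, a linear fold change (ratio), its log2 ratio, a p-value and an adjusted p-value, per the file headers. The 21 genes on more than 1 line were counted once. The authors' adjusted p-values matched a Benjamini-Hochberg recomputation to within 0.00203. For well-read genes the authors' log2 ratio lay above that of their means by 0.04, a factor of 1.02. Group means allow no test by library, and calls are the authors' adjusted p under 0.05.

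Levels per length used union exon lengths of GENCODE M21, which held 19256 of the 19940 gene IDs and all 10 members. Alternatives covered thresholds, corrections, low-read filters, scaling, pseudocount and length. The correction code was tested on simulated data. Python 3.11.15, pandas 2.3.3, numpy 2.4.6 and matplotlib 3.10.9 were used. The 10 members and all gene lists were chosen with earlier results of these data known. Named genes were the members, list genes with adjusted p under 0.05, otherwise up to 4 with the smallest p, and some known for their role, chosen after their values were seen. Depth of single libraries is unknown, so the precision of a mean is not known. Values of some single list genes are not reported here.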

Additional observations from a re-analysis of the deposited data

How the results depend on the processing

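The rise of Dnmt3b held under all 6 other thresholds, corrections and filters tried. These all reuse the authors' deposited p, so they do not test the spread of libraries or the test behind that p. The count of lower members, 1 as deposited, was 3 at an unadjusted p under 0.05 and 3 with Benjamini-Hochberg adjustment over genes with at least 100 mean reads (Dnmt3a, Ezh1 and Tet3 both times), and 0 with Bonferroni correction. The 11 higher pathway genes became 8 with Bonferroni or Benjamini-Yekutieli correction, without Gadd45g, Phf19 and Rbbp7. They were 9 at an adjusted p under 0.01, 12 with either read filter and 13 at an unadjusted p under 0.05. The 4 lower pathway genes became 1 at an adjusted p under 0.01, 1 with Benjamini-Yekutieli, 8 at an unadjusted p under 0.05 and 0 with Bonferroni. The 1 higher target gene, Igf1, became 0 under adjusted p under 0.01, Bonferroni and Benjamini-Yekutieli, and 2 at an unadjusted p under 0.05. The 100-read filter left Igf1 out before adjustment, since its mean over both groups was 74.5 reads. With the 10-read filter Igf1 still passed. Scaling to total mean reads turned the median log2 ratio of the DNA methyltransferases to -0.0006, which is the value of Dnmt1. That of demethylation partners became -0.0454, and the median of all genes moved by -0.09. With acinar markers and the 5 genes with the most reads left out of the total, the first 2 medians were 0.061 and 0.0162. A pseudocount of 10 took the medians of germline and Hox genes, 0.38 and 0.44, to 0.1375 and 0.1255, since their reads are few. With the longest transcript, 8 members in pregnant and 4 in nonpregnant islets kept their rank by level. No paired analysis was possible because the table holds 1 mean per group, and for the same reason no library could be left out.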

Other observations

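Tet2 and Dnmt3a had similar ratios and different p-values. The authors' deposited table gave Tet2 a ratio of 0.71 with p = 0.0835 at 2968 and 4309 mean reads, and Dnmt3a a ratio of 0.74 with p = 2.09e-05 at 12943 and 17933 mean reads. Tet3, with 3608 and 4494 mean reads, had a smaller change than Tet2 (ratio 0.82) and a lower p of 0.00884 per the authors' deposited table. The spread of single libraries behind these p-values was not analysed here.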
